A study of Homo sapiens with 6 samples.

Results

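NRF2 targets and antioxidant enzymes were followed as a list of 43 genes, taken by gene name from a table of 60591 genes, in KYSE150 cells given the phorbol ester TPA or the solvent DMSO. KYSE150 is an established cell line of oesophageal squamous cell carcinoma, and TPA activates protein kinase C by binding where diacylglycerol binds. The TPA group (3 libraries) received 10 ng/ml for 24 h after a night without serum, and the DMSO group (3 libraries) carries that solvent as its label, with no dose or time of its own. Both groups are the same unmodified line, so they share its genotype, and the labels do not say whether libraries of a group came from separate cultures. P-values therefore measure only the spread between these libraries, which may be technical. Of the 43 genes 36 had enough reads to be tested, among 21825 tested genes in all, and the other 7 (GSTM3, MGST1, AKR1B10, AKR1C1, AKR1C2, AKR1C3 and ALDH3A1) were near 0 counts.

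NRF2, encoded by NFE2L2, is a transcription factor that is held at a low level because KEAP1 hands it to a ubiquitin ligase. Oxidants and electrophiles modify KEAP1, NRF2 then builds up, pairs with a small MAF protein and binds antioxidant response elements near genes for glutathione synthesis, thioredoxin reduction, NADPH supply, quinone and carbonyl reduction, iron storage and drug export. In squamous carcinomas of the oesophagus this pathway is active in some tumours because NFE2L2 or KEAP1 is mutated. SOD1, SOD2 and CAT remove superoxide and hydrogen peroxide and are only partly under NRF2 control. The antioxidant response element contains letters close to the AP-1 site, the element through which phorbol esters act on many genes.

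The libraries held 27702329 to 33965547 counts. Libraries resembled one another by the number in their title as well as by treatment. Across tested genes TPA 1 correlated more closely with DMSO 1 (r = 0.974) than with TPA 2 (0.927) or TPA 3 (0.936), whereas TPA 2 and TPA 3 (0.992) and DMSO 2 and DMSO 3 (0.993) were close pairs. The genes named in detail are therefore given with their values in every library, and with a fit that has the library number as a block where this changed the call. Transcript GC content moved with the ratios too (Spearman correlation across 17181 genes of 0.59 and 0.54 for TPA over DMSO in pairs 2 and 3 and -0.11 in pair 1, where a pair is the 2 libraries of 1 number). CPM is the count of a gene over the library total in units of 1e6 reads, after TMM scaling, which allows for library composition. Of 10 squamous epithelial markers 9 exceeded 1 CPM in every library, and KRT6A did so in all but DMSO 1 (0.46 CPM). Fibroblast, leukocyte and endothelial marker lists summed to 1.27 to 15.4 CPM in the libraries, against 2290 to 5440 CPM for the squamous list. Of these lists COL1A1 (2.9 to 12.1 CPM), CD3E (1.04 to 3.81) and CD68 (1.19 to 7.17) exceeded 1 CPM in every library, DCN and KDR had no count, and PTPRC, the pan-leukocyte gene, reached at most 0.181 CPM.

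Of the 36 tested genes 1, AKR1B1, was higher in TPA and 0 were lower by edgeR's quasi-likelihood test, with p adjusted over all tested genes and a threshold of 0.05. Among all tested genes 0.861% were called higher and 0.394% lower. At an unadjusted p under 0.05 there were 13 of the 36 genes (10 higher and 3 lower), or 36.1%, beside 22.1% of all tested genes. Every TPA library lay above every DMSO library for 10 of the 36 genes (14.3% of all tested genes did so), and below for 4 (15.2% of all). The median log2 fold change of the 36 genes was 0.24, beside -0.11 for all tested genes. It was 0.02 within pair 1, 0.46 within pair 2 and 0.27 within pair 3, where all genes with at least 10 counts in every library had 0.01, -0.05 and -0.04. With the library number as a block, 6 of the 36 were called higher (SQSTM1, AKR1B1, HMOX1, FTL, OSGIN1 and SOD2; 4.58% of all genes) and 2 lower (PIR and CAT; 6.52% of all). DESeq2 called 7 higher (4.05% of its genes) and 1 lower (CAT; 1.89%), and limma-voom called 1 higher (1.13%) and 0 lower (0.596%).

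**Figure D1:**
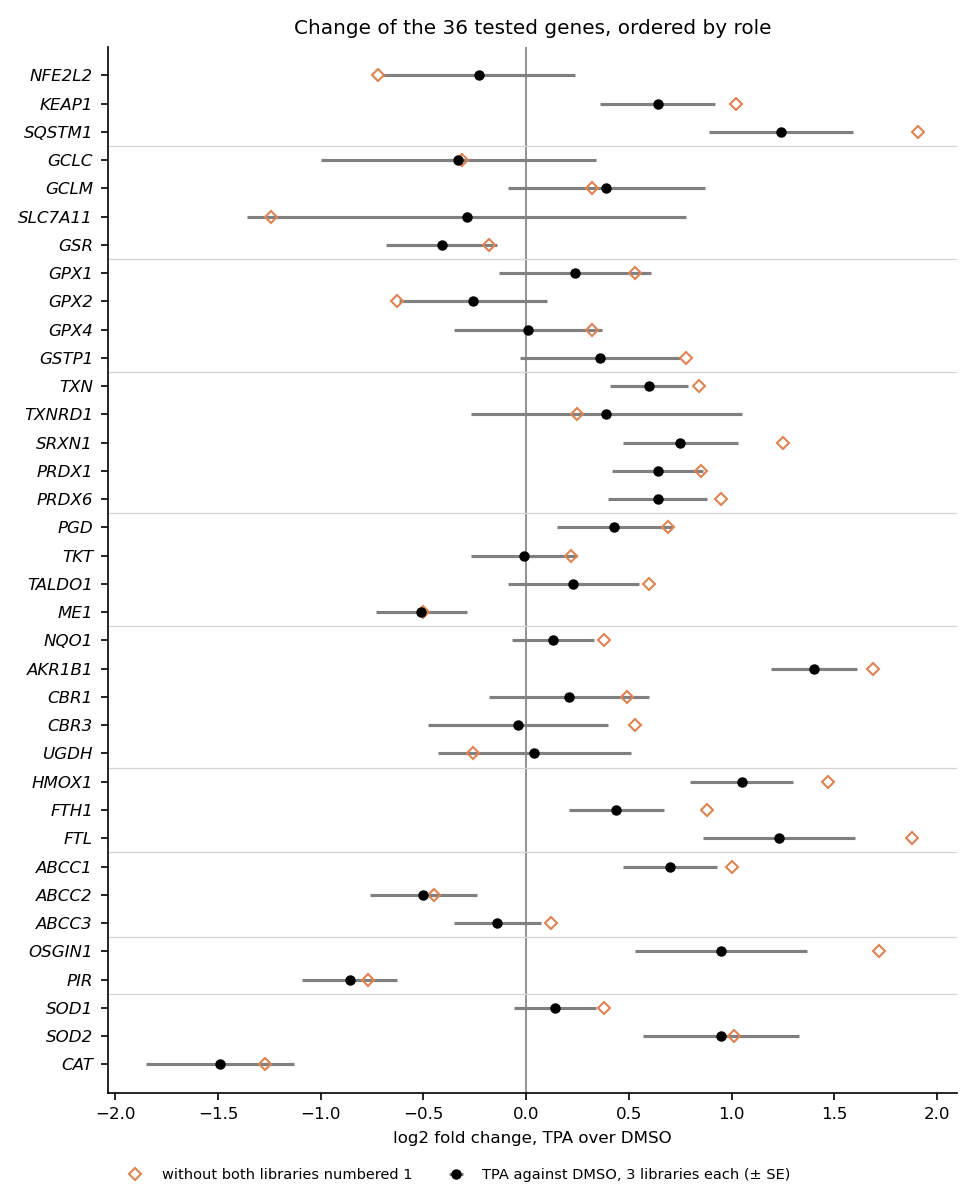
Log2 fold change of the 36 tested genes (horizontal axis, TPA over DMSO), in order of role from top to bottom with thin lines between roles. Black points with bars are estimates ± SE from all 6 libraries, and open orange diamonds are estimates without the libraries numbered 1; the diamonds of SQSTM1 (1.91), FTL (1.88) and OSGIN1 (1.72) lie to the right of their points (1.24, 1.23 and 0.95), and that of SLC7A11 (-1.24) to the left of its point (-0.29).

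AKR1B1 encodes aldose reductase, which uses NADPH to reduce glucose and reactive aldehydes (chromosome 7, 134442350 to 134459284, GENCODE 29 on GRCh38). It had 61.4, 50.1 and 58.1 CPM in DMSO 1, 2 and 3 and 132, 162 and 152 CPM in TPA 1, 2 and 3. All 3 TPA libraries were more than double any DMSO library, with no overlap, and the libraries numbered 1 did not stand apart. AKR1B1 rose from 56.5 ± 5.85 to 149 ± 15.2 CPM (SD, n = 3), a log2 fold change of 1.40 ± 0.21 (SE; adjusted p = 0.0374 in edgeR). With the block and the GC correction together it was 1.03 (adjusted p = 0.00489). Its call was lost when TPA 2 (adjusted p = 0.125), TPA 3 (0.162), DMSO 1 (0.0628), DMSO 2 (0.294) or DMSO 3 (0.276) was left out, although the estimate stayed between 1.33 and 1.46, and it held without TPA 1 (0.00041). In bulk RNA a change in the level per cell and a change in the share of cells that express the gene cannot be told apart.

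AKR1B10, the AKR1C genes and ALDH3A1 had few counts. AKR1B10, an intestinal-type aldose reductase and a frequent marker of NRF2 activity, had 21 counts in all DMSO libraries and 12 in all TPA libraries, a ratio of 0.61 (95% counting interval 0.273 to 1.3). AKR1C1, a hydroxysteroid dehydrogenase and also a common NRF2 target, went from 1 count to 33, or 35.2 times as many per library size (5.89 to 1430), of which 23 counts came from TPA 1 and 5 from each of TPA 2 and TPA 3. AKR1C1 stayed below 1 CPM in every library, and DESeq2 called it higher (adjusted p = 0.0139). AKR1C2 had 1 and 2 counts, AKR1C3 9 and 17, and ALDH3A1, an aldehyde dehydrogenase of epithelia, 2 and 5. AKR1C genes are near-identical copies of one another, so their few reads may be wrongly placed or lost. Intervals cover counting error only.

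Of the 3 regulators, SQSTM1 was the one that separated the groups. It encodes p62, an autophagy receptor that binds KEAP1 and so frees NRF2, and is itself an NRF2 target (chromosome 5, 179806398 to 179838078). SQSTM1 had 1010, 414 and 441 CPM in DMSO 1, 2 and 3 and 1490, 1450 and 1440 CPM in TPA 1, 2 and 3. The TPA libraries were alike and all above DMSO, while DMSO 1 stood above DMSO 2 and DMSO 3. SQSTM1 did not pass in edgeR (log2 fold change 1.24 ± 0.35, adjusted p = 0.104). It did so with the block (1.37, adjusted p = 0.018), without DMSO 1 (1.78, 0.0356), without TPA 1 (1.33, 0.0166) and in DESeq2 (1.37, 0.0119).

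NFE2L2 itself showed no call (chromosome 2, 177227595 to 177392697). Its level was 136, 110 and 99.6 CPM in DMSO and 181, 53.4 and 61.3 CPM in TPA. TPA 1 was above every DMSO library and TPA 2 and TPA 3 were below every one. Its log2 fold change was -0.23 ± 0.47 (adjusted p = 0.798), made of 0.41 in pair 1 against -1.04 and -0.70 in pairs 2 and 3, and without TPA 1 NFE2L2 was called lower (-0.90, adjusted p = 0.00331). KEAP1 (chromosome 19, 10486120 to 10503741) had 57.5, 55.8 and 63.0 CPM in DMSO and 58.3, 114 and 103 CPM in TPA. TPA 1 lay within the DMSO range, and TPA 2 and TPA 3 above it, the reverse of NFE2L2. The log2 fold change of KEAP1 was 0.64 ± 0.28 (adjusted p = 0.239), and without TPA 1 KEAP1 was called higher (0.99, adjusted p = 0.00071). With the GC correction and block neither gene was called, at 0.23 for KEAP1 (0.168) and -0.17 for NFE2L2 (0.5). KEAP1 transcripts had 61.6% GC and those of NFE2L2 45.2%, and the part of GC content in these differences was not tested beyond that correction.

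Genes of haem breakdown and iron storage were among those with the larger differences. HMOX1 encodes haem oxygenase, which breaks down haem to biliverdin, iron and carbon monoxide (chromosome 22, 35380361 to 35394214). It had 11.4, 7.25 and 9.63 CPM in DMSO and 16.9, 21.3 and 20.6 CPM in TPA. The groups did not overlap, and TPA 1 was the lowest of the TPA libraries. HMOX1 missed the threshold in edgeR at log2 1.05 ± 0.25 (adjusted p = 0.0755), and passed with the block (0.0285) and in DESeq2 (0.00382). FTL, the light chain of the iron store ferritin (chromosome 19, 48965301 to 48966878), had 630, 265 and 252 CPM in DMSO and 978, 852 and 853 CPM in TPA. As for SQSTM1, DMSO 1 lay between the other DMSO libraries and the TPA libraries. For FTL the estimate was log2 1.23 ± 0.37 (adjusted p = 0.116 in edgeR). FTL passed with the block (0.0163), without DMSO 1 (0.0378) and in DESeq2 (0.0159). Per length, FTL had the highest level of the 42 genes with a known exon length, 435 RPKM (CPM divided by the exon length in kilobases) on average in DMSO and 1020 in TPA, ahead in DMSO of the heavy chain gene FTH1 (170 RPKM). FTH1 had 441, 306 and 290 CPM in DMSO and 417, 522 and 464 CPM in TPA, so the groups overlapped (log2 0.44 ± 0.23, adjusted p = 0.313). Both ferritin genes have many processed pseudogenes, and their counts are uncertain.

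OSGIN1, an oxidative stress-induced growth inhibitor (chromosome 16, 83948282 to 83966332), had 18.8, 7.43 and 6.28 CPM in DMSO and 22.0, 20.3 and 20.4 CPM in TPA. DMSO 1 was close to the TPA level and the other DMSO libraries were far below it. OSGIN1 did not pass (0.95 ± 0.42, adjusted p = 0.241) and did so with the block (1.12, adjusted p = 0.0414). PIR, an iron-binding nuclear protein called pirin (chromosome X, 15384799 to 15493564), went the other way. It had 20.5, 28.7 and 26.0 CPM in DMSO and 12.6, 14.5 and 14.4 CPM in TPA, with no overlap. For PIR the estimate was log2 -0.86 ± 0.23 (adjusted p = 0.0891; 0.0411 with the block).

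**Figure D2:**
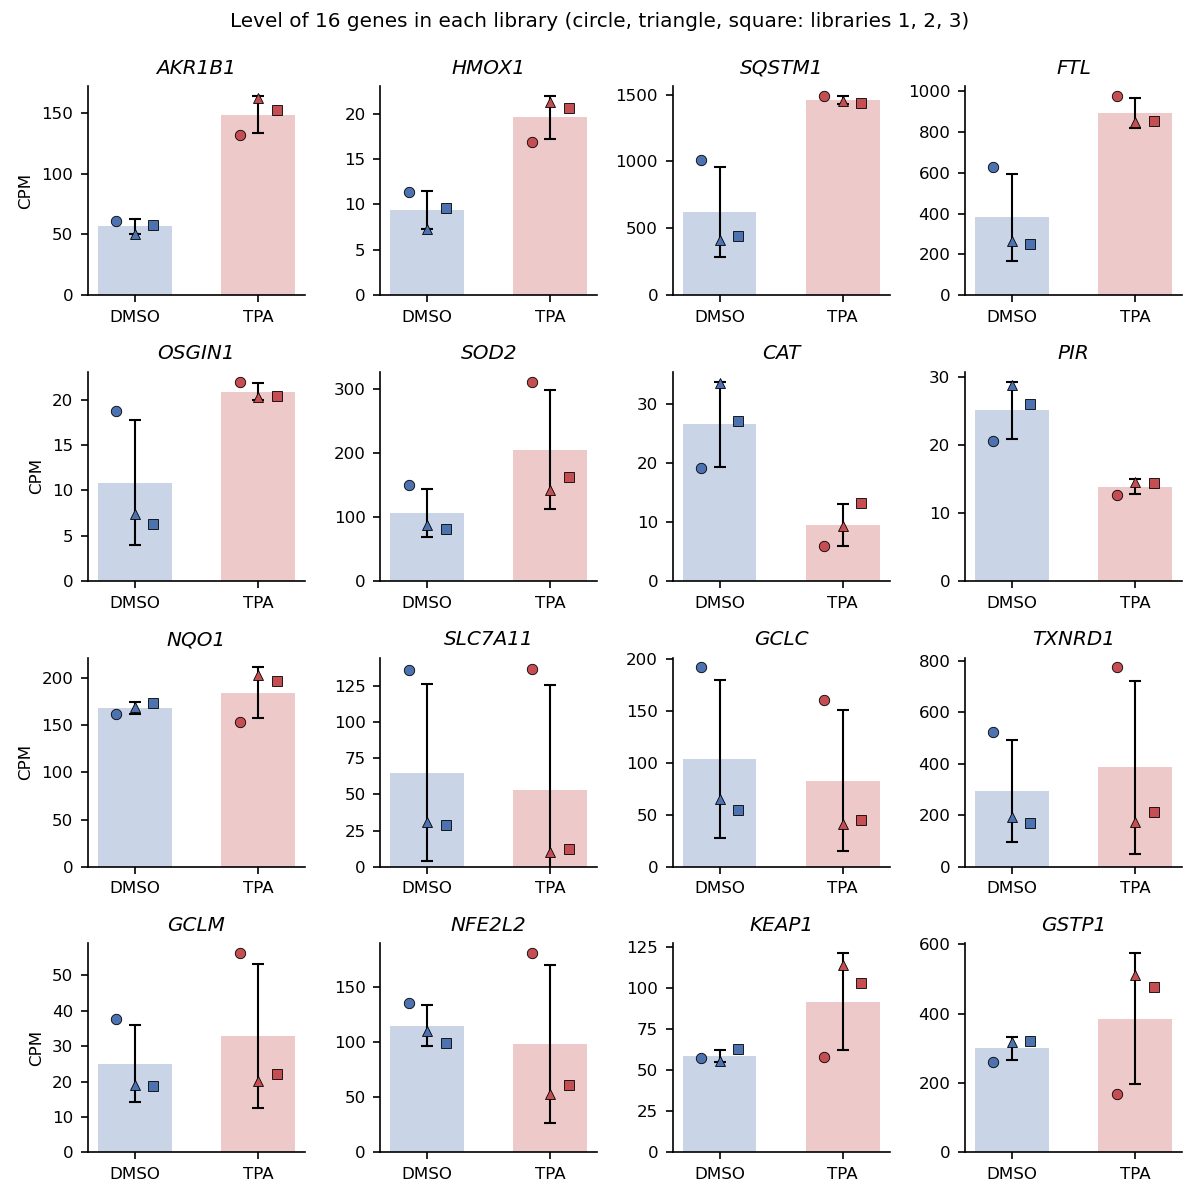
CPM (vertical axis, from 0) of 16 genes in the DMSO (blue) and TPA (red) libraries; circles, triangles and squares are libraries 1, 2 and 3, bars are means and error bars SD (n = 3). AKR1B1, HMOX1, SQSTM1, FTL, OSGIN1, CAT and PIR have no overlap between groups. The circle of each group is the highest point in SLC7A11, GCLC, TXNRD1, GCLM, NFE2L2 and SOD2, and also in SQSTM1, FTL and OSGIN1.

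None of the 4 genes of glutathione supply was called for treatment in edgeR on all 6 libraries without block or GC correction. In 3 of them library 1 was the highest of each group. SLC7A11, the cystine importer of the xCT exchanger (chromosome 4, 138164097 to 138242349), had 136, 30.7 and 28.6 CPM in DMSO 1, 2 and 3 and 137, 10.0 and 12.5 CPM in TPA 1, 2 and 3. Both libraries numbered 1 were at the same level, and both pairs of other libraries were far lower. Between treatments its log2 fold change was -0.29 ± 1.07 (adjusted p = 0.892; 0.0781 with the block), composed of 0.02 in pair 1, -1.62 in pair 2 and -1.19 in pair 3. Without DMSO 1 it was 0.85, and without TPA 1 it was -2.42 and called (adjusted p = 0.0243).

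GCLC, the catalytic subunit of the enzyme that begins glutathione synthesis (chromosome 6, 53497341 to 53616970), had 192, 64.9 and 54.8 CPM in DMSO and 161, 41.4 and 45.4 CPM in TPA. GCLM, its modifier subunit (chromosome 1, 93885205 to 93909456), had 37.5, 18.9 and 18.7 CPM in DMSO and 56.2, 20.1 and 22.0 CPM in TPA. In each the library numbered 1 was the highest of its group and the groups overlapped. Their log2 fold changes were -0.33 ± 0.67 (adjusted p = 0.796) and 0.39 ± 0.48 (0.66), and GCLM passed in the GC-corrected blocked fit alone among the fits that kept all 6 libraries (0.73, 0.0156). GSR, glutathione reductase, had 125, 164 and 171 CPM in DMSO and 78.9, 138 and 129 CPM in TPA, so here the libraries numbered 1 were the lowest. Its log2 fold change was -0.41 ± 0.27 (adjusted p = 0.409), whereas the GC-corrected blocked fit gave -0.64 and called it lower (0.0133).

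TXNRD1, the selenoenzyme that reduces thioredoxin (chromosome 12, 104215779 to 104350305), shared the pattern of SLC7A11. It had 522, 192 and 168 CPM in DMSO and 774, 173 and 211 CPM in TPA. The 2 libraries numbered 1 held the highest levels whatever the treatment (log2 fold change 0.39 ± 0.66, adjusted p = 0.754). Among the 36 genes, 3 (SLC7A11, TXNRD1 and GCLC) were at least 2-fold higher in library 1 than in the mean of libraries 2 and 3 in both groups, against 1.69% of the 17653 tested genes with at least 10 counts in every library. The log2 ratios in DMSO and TPA were 2.20 and 3.61 for SLC7A11, 1.54 and 2.01 for TXNRD1 and 1.69 and 1.89 for GCLC. GCLM was just short of 2-fold in DMSO and had a log2 ratio of 1.42 in TPA. UGDH, which makes the UDP-glucuronic acid used to conjugate drugs, had 0.68 and 1.57, and NFE2L2 0.38 and 1.66. After the GC correction the same 3 genes were at least 2-fold higher, beside 1.3% of all genes, with 1.89 and 2.30 for SLC7A11, 1.48 and 1.70 for TXNRD1 and 1.55 and 1.18 for GCLC. GCLM then had 0.80 in DMSO and 0.47 in TPA. These ratios compare single libraries and were not tested, and the labels do not say what the number stands for. SQSTM1 (1.24 and 0.05), FTL (1.28 and 0.20) and OSGIN1 (1.45 and 0.12) were high in DMSO 1 and level among the TPA libraries before the GC correction. After it the ratios in DMSO and TPA were 1.46 and 0.87 for SQSTM1, 1.44 and 0.91 for FTL and 1.65 and 0.90 for OSGIN1, so that TPA 1 was no longer level with TPA 2 and TPA 3.

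**Figure D3:**
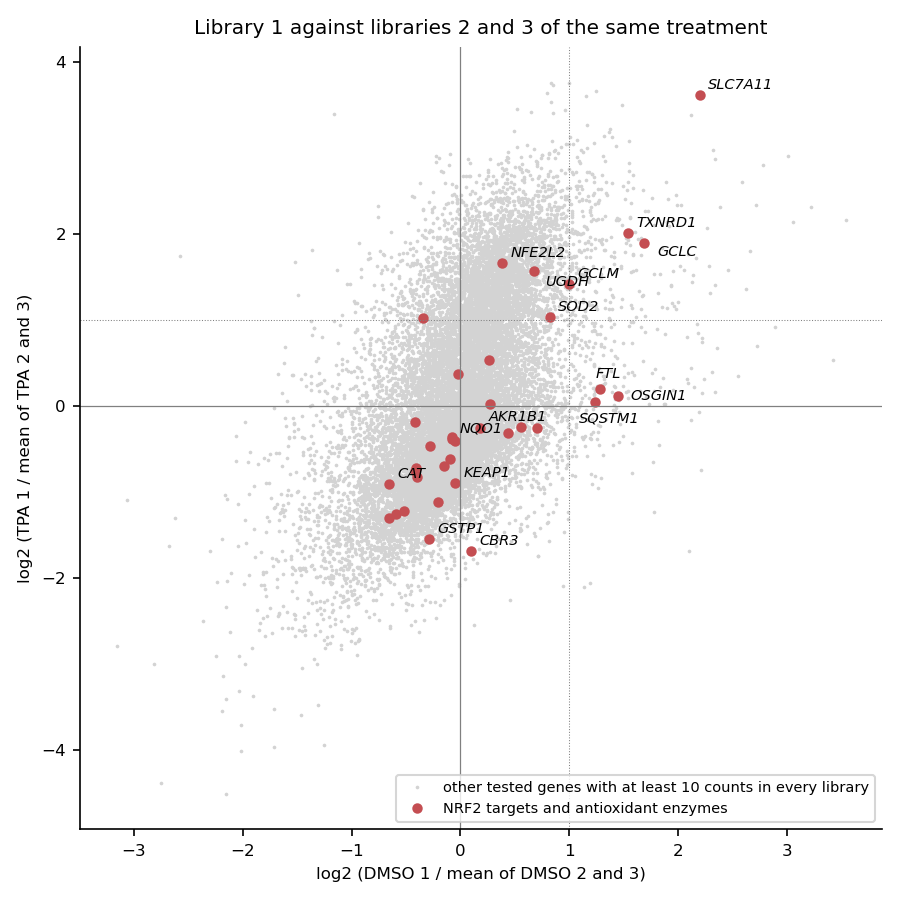
Each point is a gene; the horizontal axis is the log2 ratio of DMSO 1 to the mean of DMSO 2 and 3, and the vertical axis is the same ratio for TPA. Red points are the 36 tested NRF2 targets and antioxidant enzymes and grey points other tested genes with at least 10 counts in every library; dotted lines mark 2-fold, and SLC7A11 (2.20 and 3.61), TXNRD1 and GCLC lie in the upper right corner.

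The start regions of these genes were read for the letters that NRF2 and AP-1 recognise. RefSeq windows from 250 bases before to 50 after an annotated start (GRCh38.p14) matched 31 of the 43 genes, in 45 windows. The antioxidant response element core TGACNNNGC was searched on both strands, as was the AP-1 site TGACTCA, which overlaps it in TGACTCAGC. The core stood in 11 of the 45 windows (24.4%), beside 13.3% of all 35116 windows. By gene it stood in 10 of the 31 (CBR1, GCLM, GPX2, GSTP1, KEAP1, ME1, MGST1, PGD, PIR and TXNRD1), beside 16.1% of all 27305 genes. TGACTCA stood in 4 of the 45 windows (8.89%, beside 4.95% of all), and the joint TGACTCAGC in those of GSTP1, ME1 and PIR (6.67%, beside 0.561%). For each of 4 genes 1 window is shown, with matches in capitals. They are TXNRD1 (chr12:104215529-104215828, + strand), GCLM (chr1:93909381-93909680, - strand), OSGIN1 (chr16:83952990-83953289, + strand) and GSTP1 (chr11:67583562-67583861, + strand).
TXNRD1: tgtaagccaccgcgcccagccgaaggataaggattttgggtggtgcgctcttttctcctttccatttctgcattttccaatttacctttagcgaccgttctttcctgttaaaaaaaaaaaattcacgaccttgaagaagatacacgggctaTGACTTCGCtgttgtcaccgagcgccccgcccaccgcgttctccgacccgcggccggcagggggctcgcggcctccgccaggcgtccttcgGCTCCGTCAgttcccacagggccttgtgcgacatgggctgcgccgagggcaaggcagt
GCLM: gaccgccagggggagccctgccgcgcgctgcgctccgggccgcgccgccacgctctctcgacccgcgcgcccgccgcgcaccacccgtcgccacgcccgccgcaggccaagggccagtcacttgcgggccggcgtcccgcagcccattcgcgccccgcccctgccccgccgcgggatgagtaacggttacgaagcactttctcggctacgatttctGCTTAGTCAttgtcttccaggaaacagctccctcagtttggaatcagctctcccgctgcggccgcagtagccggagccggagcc
OSGIN1: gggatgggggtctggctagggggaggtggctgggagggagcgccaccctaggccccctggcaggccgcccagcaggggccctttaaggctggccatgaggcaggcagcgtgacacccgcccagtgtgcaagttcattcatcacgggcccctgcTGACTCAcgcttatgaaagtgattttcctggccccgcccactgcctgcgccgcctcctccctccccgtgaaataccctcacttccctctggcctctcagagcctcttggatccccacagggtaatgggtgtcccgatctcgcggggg
GSTP1: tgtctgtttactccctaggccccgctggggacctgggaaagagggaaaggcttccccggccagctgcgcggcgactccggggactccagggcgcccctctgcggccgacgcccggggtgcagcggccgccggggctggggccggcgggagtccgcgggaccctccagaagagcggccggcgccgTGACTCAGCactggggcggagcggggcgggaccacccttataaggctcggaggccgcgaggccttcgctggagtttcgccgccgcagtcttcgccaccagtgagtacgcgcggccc
With the start base as 0, the TXNRD1 matches shown begin at -99 and -8, that of GCLM at -34, that of OSGIN1 at -97 and that of GSTP1 at -66. A further TXNRD1 window (chr12:104286782-104287081, + strand), not shown, has a core match beginning at -102. The capitals mark the TGACNNNGC core in TXNRD1 and GCLM, the AP-1 letters TGACTCA without the core in OSGIN1, and the joint TGACTCAGC in GSTP1. Among the genes with no match in their windows were AKR1B1, SQSTM1, FTL, GCLC, NQO1, SRXN1, TXN and CAT. HMOX1, SLC7A11, GSR, PRDX1, PRDX6, AKR1B10, CBR3, ALDH3A1, FTH1, ABCC1, ABCC3 and SOD1 had no window and were not searched. A match is a description of the letters, and elements known to act on several of these genes lie outside such windows.

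The other thioredoxin and peroxiredoxin genes differed by treatment in the same direction without passing in edgeR on all 6 libraries without block or GC correction. TXN, thioredoxin (chromosome 9, 110243811 to 110256640), had 206, 171 and 169 CPM in DMSO and 278, 263 and 285 CPM in TPA. No library overlapped and the libraries of TPA were close to one another (log2 0.60 ± 0.19, adjusted p = 0.125). The GC-corrected blocked fit (1.19, adjusted p = 0.0325) and DESeq2 (0.73, 0.0304) called TXN higher. The GC correction without the block did not (1.30, 0.0605). TXN transcripts had 37.6% GC. The log2 ratio of TPA 1 to the mean of TPA 2 and TPA 3 was 0.02 before that correction and -1.31 after it, so these libraries were then no longer close. SRXN1, sulfiredoxin, which repairs over-oxidised peroxiredoxins (chromosome 20, 646615 to 653370), had 10.1, 6.09 and 6.37 CPM in DMSO and 11.2, 11.9 and 14.8 CPM in TPA. The gap between DMSO 1 and TPA 1 was small (log2 0.14, against 0.97 and 1.21 in pairs 2 and 3), and the log2 fold change was 0.75 ± 0.28 (adjusted p = 0.182; 1.25 without the libraries numbered 1). The peroxide reductase genes PRDX1 (142, 172 and 173 against 202, 277 and 280 CPM) and PRDX6 (172, 186 and 196 against 204, 339 and 323 CPM) had log2 fold changes of 0.64 ± 0.22 and 0.64 ± 0.24 (adjusted p = 0.145 and 0.181). In both, TPA 1 was the TPA library nearest to DMSO. Both were called in the GC-corrected blocked fit (adjusted p = 0.0209 and 0.0476), and neither with the GC correction alone (0.0735 and 0.116). That correction moved the log2 ratio of TPA 1 to TPA 2 and TPA 3 from -0.46 to -0.28 for PRDX1 and from -0.70 to -1.16 for PRDX6.

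Of the 6 genes of enzymes that spend glutathione, 4 were tested and none was called in edgeR on all 6 libraries without block or GC correction. GSTP1, the main glutathione transferase of squamous epithelia (chromosome 11, 67583595 to 67586656), had 261, 319 and 321 CPM in DMSO and 169, 513 and 476 CPM in TPA. TPA 1 was below and TPA 2 and TPA 3 above all DMSO libraries (log2 0.36 ± 0.39, adjusted p = 0.619). GPX1, a peroxidase of the cytosol, had 78.5 CPM in TPA 1 against 191 and 181 CPM in TPA 2 and TPA 3, and 95.1 to 148 CPM in DMSO. GPX4, which reduces lipid peroxides and so guards against ferroptosis, had 54.5 CPM in TPA 1, 136 and 118 CPM in TPA 2 and TPA 3, and 78.9 to 117 CPM in DMSO. GPX1 and GPX4 thus shared the order of GSTP1, with log2 fold changes of 0.24 ± 0.37 and 0.01 ± 0.36 (adjusted p = 0.727 and 0.988). All 3 have GC-rich transcripts (61.2% to 63.4%), and after the GC correction with the block their values were -0.15, -0.19 and -0.42, of which GPX4 passed as lower (adjusted p = 0.0343). GPX2, a peroxidase of the gut lining, was low (2.42 to 5.43 CPM in the 6 libraries). GSTM3 had 3 counts in DMSO and 0 in TPA, and MGST1, a microsomal transferase, 6 and 0, with at most 3 counts in any library, so no fold is given.

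NADPH is the reducing agent of both the glutathione and thioredoxin systems, and none of the 4 genes for its supply was called in edgeR on all 6 libraries. TKT, transketolase, the most highly counted of them, had 648, 820 and 900 CPM in DMSO and 549, 940 and 866 CPM in TPA (log2 -0.01 ± 0.26, adjusted p = 0.988). PGD and TALDO1, also of the pentose phosphate pathway, had log2 fold changes of 0.43 ± 0.28 and 0.23 ± 0.32 (adjusted p = 0.401 and 0.694). ME1, malic enzyme, had 23.9, 24.5 and 23.9 CPM in DMSO and 19.9, 15.3 and 15.5 CPM in TPA. The groups did not overlap and DMSO was very even (log2 -0.51 ± 0.22, adjusted p = 0.217), but after the GC correction the difference was gone (0.11, and 0.06 with the block). ME1 transcripts had 39.5% GC. Without TPA 1, PGD (0.77, adjusted p = 0.00415) and TALDO1 (0.63, 0.00494) were called higher and ME1 (-0.53, 0.0118) lower, and TKT was not called (0.30, 0.12).

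NQO1, the quinone reductase most used as a readout of NRF2 (chromosome 16, 69706996 to 69726951), ranged from 154 to 203 CPM in the 6 libraries. It had 162, 169 and 174 CPM in DMSO and 154, 203 and 197 CPM in TPA. The groups overlapped through TPA 1, and the log2 fold change was 0.13 ± 0.20 (adjusted p = 0.724) and -0.13 with scaling by library size only. Without TPA 1 NQO1 was called higher (0.36, adjusted p = 0.0204), as were 24.6% of all tested genes. Unlike SLC7A11 and TXNRD1, NQO1 was not higher in the libraries numbered 1 (log2 -0.08 in DMSO and -0.38 in TPA). The carbonyl reductases CBR1 (23.4 to 59.1 CPM) and CBR3 (1.63 to 5.57 CPM) and UGDH (49.4 to 157 CPM) had adjusted p from 0.779 to 0.969. TPA 1 was the lowest library for CBR1 and CBR3 and the highest for UGDH.

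The export pumps of the ABCC family carry glutathione and glucuronide conjugates out of the cell. ABCC1 (chromosome 16, 15949577 to 16143074) had 139, 146 and 152 CPM in DMSO and 175, 277 and 259 CPM in TPA, with no overlap. Its log2 fold change was 0.70 ± 0.23 (adjusted p = 0.136 in edgeR and 0.0486 in DESeq2). ABCC2 was low, at 8.74, 7.34 and 7.22 CPM in DMSO and 6.91, 5.20 and 4.40 CPM in TPA, also with no overlap in the other direction (-0.50 ± 0.26, 0.314). ABCC3 had 61.4, 62.0 and 64.7 CPM in DMSO and 46.7, 63.1 and 60.8 CPM in TPA, so the groups overlapped (-0.14 ± 0.21, 0.718).

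The enzymes that act on superoxide and hydrogen peroxide differed in sign. SOD2, the mitochondrial superoxide dismutase and a known NF-kB target (chromosome 6, 159669069 to 159762281 in RefSeq on GRCh38.p14), had 150, 88.1 and 80.7 CPM in DMSO and 312, 142 and 163 CPM in TPA. Within each number TPA was higher, by log2 1.06, 0.69 and 1.02, but TPA 2 lay below DMSO 1. Over all libraries SOD2 had log2 0.95 ± 0.38 (adjusted p = 0.20), and it passed with the block (0.92, adjusted p = 0.0335). GENCODE 29 has more than 1 gene of the name SOD2, so it has no GC value or level per length here. SOD1, its cytosolic relative, had 70.9, 73.9 and 76.0 CPM in DMSO and 68.4, 88.4 and 86.6 CPM in TPA (0.14 ± 0.20, 0.714). CAT, catalase (chromosome 11, 34438925 to 34472062), had 19.2, 33.6 and 27.1 CPM in DMSO and 5.97, 9.30 and 13.2 CPM in TPA. All TPA libraries were below all DMSO libraries, and within pairs the log2 ratios were -1.68, -1.85 and -1.04. Over all libraries CAT had log2 -1.49 ± 0.36 (adjusted p = 0.0753), and it passed with the block (-1.52, adjusted p = 0.00692), when GC was corrected as well (-1.28, 0.0141) and in DESeq2 (0.0141).

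**Figure D4:**
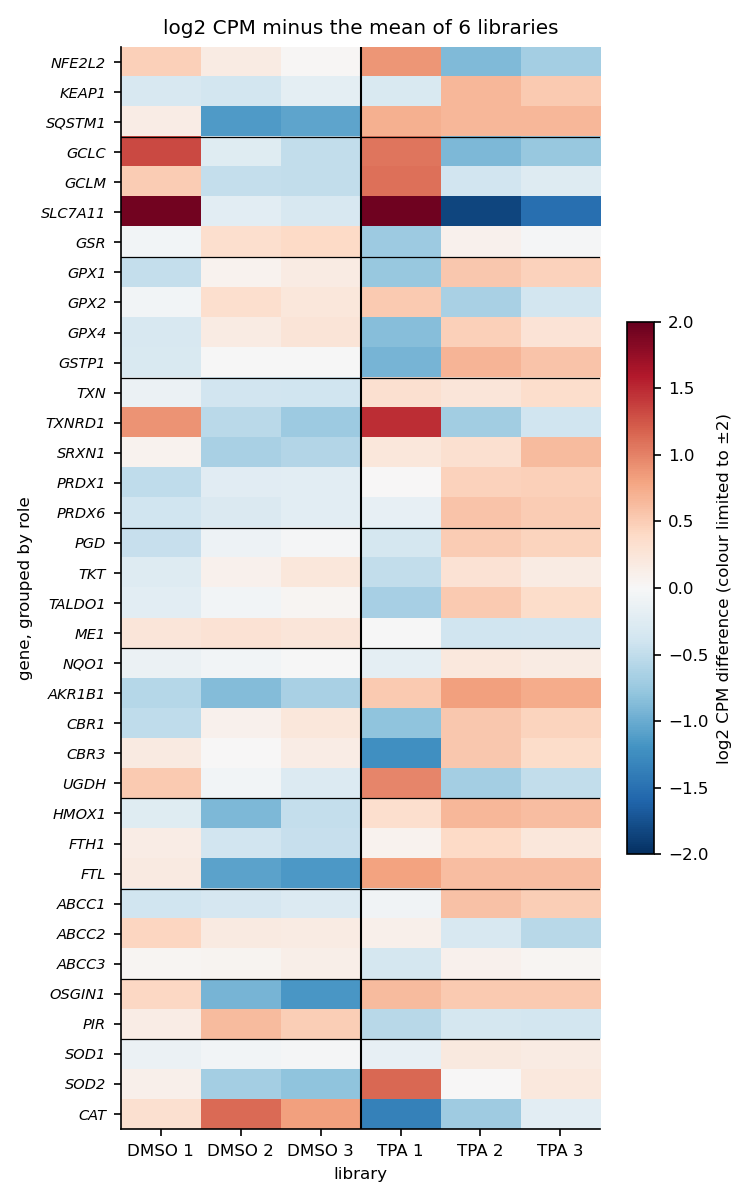
Colour gives the log2 CPM of each tested gene (rows, grouped by role) minus its mean over the 6 libraries (columns), from blue (lower) to red (higher), limited to ±2. AKR1B1 and CAT split at the line between DMSO and TPA, whereas SLC7A11, GCLC, GCLM, TXNRD1, UGDH and NFE2L2 are among the rows that are red in DMSO 1 and TPA 1.

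The GC-corrected blocked fit called 9 of 35 genes higher (SQSTM1, GCLM, TXN, PRDX1, PRDX6, AKR1B1, HMOX1, FTL and OSGIN1; 9.09% of all genes in that fit) and 5 lower (GSR, GPX4, ABCC3, PIR and CAT; 10.6% of all). The median of the 35 was 0.02, and that of all genes -0.14. Without TPA 1 alone, 18 of 36 were called higher (24.6% of all genes) and 6 lower (27.8% of all). Without both libraries numbered 1, 25 of 36 genes were called higher (32.2% of all genes) and 9 lower (33.3% of all), with a median of 0.51 against -0.04. That fit compares 2 libraries with 2. In it SLC7A11 (-1.24), NFE2L2 (-0.72) and CAT (-1.27) were lower, while SQSTM1 (1.91), FTL (1.88), OSGIN1 (1.72) and AKR1B1 (1.69) were higher.

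A further 152 genes of the same pathways held 121 tested ones. They were chosen by function with earlier results of these data known, so their shares are not independent of the data. In edgeR 5 of the 121 rose (4.13%, beside 0.861% of all tested genes) and 0 fell (beside 0.394%). At an unadjusted p under 0.05 there were 45 (37.2%, beside 22.1%). Limma-voom called 5 of the 121 higher (MAFF, MAFG, MAFK, CHAC1 and GSTO1) and 0 lower (1.13% and 0.596% of all genes). DESeq2 called 24 of 141 higher and 9 lower (4.05% and 1.89% of its 40359 genes, counted as above). The small MAF genes, whose products pair with NRF2, were 3 of the 5 called in edgeR. MAFK had 65.5, 44.8 and 48.3 CPM in DMSO and 132, 146 and 141 CPM in TPA and rose by log2 1.40 ± 0.23 (adjusted p = 0.0411), beside MAFG (1.35, 0.0437) and MAFF (1.38, 0.0487). GSTO1, an omega-class glutathione transferase, had 118, 90.7 and 99.2 CPM in DMSO and 244, 297 and 293 CPM in TPA. It rose by log2 1.44 ± 0.21 (adjusted p = 0.0351), close to AKR1B1 in size and evenness. PXDN, peroxidasin, a haem peroxidase of the extracellular matrix, had 15 counts in DMSO and 215 in TPA, and rose from 0.161 ± 0.0682 to 2.40 ± 1.32 CPM (log2 3.87 ± 0.62, adjusted p = 0.0411). As for AKR1B1, these 5 calls were lost on leaving out any 1 library other than TPA 1 (adjusted p from 0.0541 to 0.324). The GC correction without the block (0.0606 to 0.0742) and scaling by library size only (0.051 to 0.054) also ended the calls of the small MAF genes, and limma-voom that of PXDN (0.0548). BACH1, the repressor that competes with NRF2 for its elements, had 118, 85.1 and 84.7 CPM in DMSO and 156, 49.0 and 55.8 CPM in TPA, the order seen in NFE2L2 (log2 -0.14 ± 0.45, adjusted p = 0.874). With the block, 19 of the 121 were called higher (15.7%, beside 4.58% of all genes) and 13 lower (10.7%, beside 6.52%). Without it the median of the 121 was 0.06, beside -0.11 for all tested genes. TXNIP, the thioredoxin inhibitor, was listed at 0 in every library. BACH1 and TXNIP were chosen after their values were seen.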

How the data were processed

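The data are RNA sequencing of total RNA from 3 TPA and 3 DMSO libraries. The authors deposited raw read counts per gene symbol, and the submitters' processing notes name HISAT2 2.1.0, HTSeq 0.12.4 and the builds hg38 and GRCh38. Which annotation and strand mode they used is not given in the sources used here, so reads of a gene and of an overlapping or antisense partner cannot be told apart. The untreated columns are headed control and were assigned by number to the DMSO libraries; 0 columns fell outside the labels and 0 rows named no gene.

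Counts were tested with edgeR 4.0.16 in R 4.3.3 (TMM, filterByExpr, glmQLFit and glmQLFTest, group only), with Benjamini-Hochberg adjustment over 21825 genes at 0.05. Each SE was computed as the log2 fold change over the square root of its F statistic. A count of 0 allowed 0.0914 to 0.109 CPM (3 counts). Deviations from the group means correlated between libraries of 1 number at 0.546, 0.345 and 0.369. The numbers were taken as pairs, although no label states a shared culture. TPA 3 with DMSO 2 (0.356) and TPA 2 with DMSO 3 (0.374) were as close. The data thus set the libraries numbered 1 apart, but do not decide which of the libraries numbered 2 and 3 belong together. Calls made with the block rest on this pairing. No libraries were duplicates (chi-square per degree of freedom at least 6.17 between libraries of a group). GC content, exon length and coordinates came from GENCODE 29 (42 of 43 genes matched), and the GC correction removed each library's spline trend (5 degrees of freedom) as an offset. Alternatives were RLE factors, library size only, no filter, 1 CPM in every library of a group, DESeq2 1.42.0, limma-voom (limma 3.58.1), the block, the GC correction with and without it, and libraries left out.

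On simulated counts for TPA against DMSO (21149 genes), edgeR recovered 4.55% of genes changed by log2 1, 57.6% of those changed by 2 and 84.6% of those changed by 3. The simulated libraries were drawn independently, without an effect of library number or GC content, so recovery in the real libraries may differ. Values of every library are given for the regulators, the classical NRF2 readouts, genes called with or without the block, the 3 largest changes each way and the gene highest per length; others were named after their values were seen. The genes and lists were chosen with earlier results of these data known.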

Additional observations from a re-analysis of the deposited data

How the results depend on the processing

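Counts of called genes changed with most alternatives, given here as higher and lower. With the replicate block 1000 genes were higher and 1423 lower (4.58% and 6.52%), against 188 and 86 without it. Of the 36 NRF2 targets and antioxidant enzymes 6 were higher and 2 lower, and of the 121 further pathway genes 19 and 13. The GC correction gave 655 and 591 of 21023 genes, with 10 and 4 of 121 pathway genes. With the replicate block added it gave 1910 and 2226 genes (9.09% and 10.6%). These held 9 and 5 of 35 NRF2 targets and antioxidant enzymes, and 27 and 21 of 121 pathway genes. Leaving both libraries numbered 1 out gave 7216 and 7475 genes (32.2% and 33.3%) and a median of 0.51. It called 25 and 9 of the 36 (69.4% and 25%), and 66 and 35 of 122 pathway genes (54.1% and 28.7%). Both shares of lower genes were thus below that of all genes. DESeq2 gave 1635 and 761 of 40359 genes (4.05% and 1.89%), 7 and 1 of 42, and 24 and 9 of 141. Without a filter there were 429 and 202 genes. Of all 43 NRF2 targets and antioxidant enzymes 2 were then higher (AKR1B1 and AKR1C1), and of 141 pathway genes 11 were higher and 1 lower. Limma-voom called 130 genes lower. Library size alone called 219 lower (126 higher), 2 pathway genes higher and 4 lower, and moved the median from 0.24 to -0.03, as it moved that of all genes from -0.11 to -0.36. The filter of 1 CPM in every library of a group called 2 pathway genes lower. The cause of each shift was not tested.

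Leaving out 1 library gave 0 to 5577 genes higher and 0 to 6297 lower, and medians of 0.17 to 0.54. Among the NRF2 targets and antioxidant enzymes the counts were 0 to 18 and 0 to 6, and among the pathway genes 0 to 51 and 0 to 32. The high counts came without TPA 1 (24.6% and 27.8% of all genes, 50% and 16.7% of 36, 41.8% and 26.2% of 122 pathway genes). Counts of 0 among all genes came without DMSO 2 and without DMSO 3 in both directions and without TPA 3 for lower genes.

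Some log2 fold changes turned sign. With library size alone these were GPX1 (-0.03), GPX4 (-0.26), TALDO1 (-0.03), NQO1 (-0.13), CBR1 (-0.07), UGDH (-0.18) and SOD1 (-0.12). With the GC correction they were GPX1 (-0.18), GPX4 (-0.41), GSTP1 (-0.11), TALDO1 (-0.19), ME1 (0.11) and CBR1 (-0.24), and with the replicate block added GPX1 (-0.19), GPX4 (-0.42), GSTP1 (-0.15), TALDO1 (-0.21), ME1 (0.06), CBR1 (-0.25) and UGDH (-0.05). GPX4 had -0.07 and UGDH -0.12 with the block, -0.07 and -0.13 in limma-voom, and -0.07 and -0.01 with the stricter filter. TKT and CBR3 had 0.10 and 0.08 with RLE factors and without a filter, and 0.14 and 0.12 in DESeq2. Without both libraries numbered 1, TKT (0.22), CBR3 (0.53), UGDH (-0.26) and ABCC3 (0.12) turned. Leaving out 1 library gave ranges of -0.90 to 0.08 for NFE2L2, -1.15 to 0.47 for GCLC, -0.14 to 0.81 for GCLM, -2.42 to 0.85 for SLC7A11, -0.22 to 0.43 for GPX4, -0.50 to 1.11 for TXNRD1, -0.14 to 0.30 for TKT, -0.32 to 0.45 for CBR3, -0.57 to 0.34 for UGDH and -0.21 to 0.09 for ABCC3.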

Other observations

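Among the 118 further pathway genes with at least 10 counts in every library, 2 were at least 2-fold higher in library 1 than in the mean of libraries 2 and 3 in both groups. This is 1.69%, the same share as over all genes (1.69%). Both are noncoding and were singled out after their values were seen. LUCAT1, a long noncoding RNA that NRF2 is known to induce, had 18.6, 2.92 and 2.5 CPM in DMSO 1, 2 and 3 and 26.1, 4.06 and 3.45 CPM in TPA 1, 2 and 3. NMRAL2P, a transcribed pseudogene known as an NRF2 target, had 11.8, 3.23 and 3.41 CPM in DMSO and 6.37, 1.85 and 2.54 CPM in TPA. In each, library 1 was the highest of its group, and neither passed for treatment (edgeR adjusted p = 0.803 and 0.512). After the GC correction the log2 ratios of library 1 to libraries 2 and 3 were 2.64 in DMSO and 2.11 in TPA for LUCAT1, and 1.89 and 1.86 for NMRAL2P. After that correction 4 of the 118 met the criterion (3.39%, beside 1.3% of all genes), the others being CHAC1 (1.99 and 1.24) and PANX2 (1.53 and 1.18). What the library number stands for is not given in the labels, and its part in these values was not tested.

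DUOX1 and its maturation factor DUOXA1, which form a hydrogen peroxide-producing oxidase of epithelia, were low in TPA. DUOX1 had 11.5, 12.5 and 13.3 CPM in DMSO and 3.98, 8.93 and 7.13 CPM in TPA, and DUOXA1 had 0.821, 0.944 and 0.715 CPM in DMSO and 0.145, 0.269 and 0.163 CPM in TPA. The groups did not overlap in either gene. Neither passed in edgeR on all 6 libraries without block or GC correction (adjusted p = 0.166 and 0.061). Both passed with the block (0.0446 and 0.0279) and with the GC correction without the block (0.0178 and 0.023). DESeq2 called DUOXA1 (0.0243) but not DUOX1 (0.217). CHAC1, which degrades glutathione, had 9.79, 2.95 and 2.83 CPM in DMSO and 39.7, 31.0 and 29.9 CPM in TPA, with DMSO 1 above DMSO 2 and DMSO 3. Its log2 fold change was 2.69 ± 0.52 (edgeR adjusted p = 0.0583, and 0.000623 with the block). Without a block it passed in limma-voom, in DESeq2 (2.69e-06) and in edgeR without a filter (0.00581), but not with the GC correction (0.0694).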
